A study of Caenorhabditis elegans with 2 samples.

Results

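The X chromosome held 4466 of the 27953 candidate regions listed for MEC-3 in late embryos of Caenorhabditis elegans. These are all X regions in the list that derives from both replicates together, on genome build ce11. The authors label that list as peaks and background, so a candidate need not be a binding site. Of the X candidates, 68 were among the 457 final peaks of the list thresholded by irreproducible discovery rate (IDR). IDR is a measure of how far replicates agree in rank. In these lists the 457 final peaks were the 457 candidates of highest pooled signal, so being final on X is a statement about that signal and not about the agreement of the replicates at the region. The assay was chromatin immunoprecipitation with sequencing (ChIP-seq) on whole hermaphrodites of strain OP55 (unc-119(ed3) III; wgIs55), a stable transgenic line in which MEC-3 carries GFP and FLAG at its C terminus, taken 4 h after synchronization by egg bleaching and precipitated with an antibody against GFP. There was 1 group with 2 biological replicates, and no strain without the transgene and no control sample was used here. The transgene adds a tagged copy of mec-3, whose products need not match those of the native gene in amount or place. The lists hold positions and signals and no expression values, so the labelled stage could not be checked against markers.

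The LIM homeodomain protein MEC-3 is needed for touch receptor neurons to take on their fate, in partnership with UNC-86, a POU homeodomain protein. Hermaphrodites carry a pair of X chromosomes, and in embryos the dosage compensation complex binds both of them and lowers their transcription. The X chromosome carries fewer genes that are used everywhere or in the germ line than the autosomes, and many that are used in neurons and muscle. Worm messages are often trans-spliced, so that an annotated 5′ end can lie downstream of the promoter. Genes of tRNAs, transcribed by RNA polymerase III from a promoter inside the gene, are common on X.

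The 7 sequences shown are from final peaks on X, chosen for their signal or the motifs they hold, and were read from the RefSeq copy of assembly WBcel235 on its forward strand, 5′ to 3′. The first is the whole region of highest signal on X, 144 bp wide and 162 bp upstream of T13C5.6 at chrX:6207776-6207919. The next pair spans 100 bp on each side of the summits at the leucine tRNA gene C04A11.t1 (chrX:13665465-13665665) and at the aspartate tRNA gene F38G1.t2 in an intron of egl-17, a fibroblast growth factor gene (chrX:489813-490013). Capitals in these 3 mark GTTCNANNC on either strand, the core of the B box of RNA polymerase III promoters.
T13C5.6: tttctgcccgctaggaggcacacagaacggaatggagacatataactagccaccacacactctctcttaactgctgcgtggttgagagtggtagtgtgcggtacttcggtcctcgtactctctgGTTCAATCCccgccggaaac
C04A11.t1: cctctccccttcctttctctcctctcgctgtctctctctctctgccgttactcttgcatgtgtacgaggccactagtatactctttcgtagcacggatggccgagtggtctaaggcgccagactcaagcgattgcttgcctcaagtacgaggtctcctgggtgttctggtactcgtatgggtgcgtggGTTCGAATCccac
F38G1.t2: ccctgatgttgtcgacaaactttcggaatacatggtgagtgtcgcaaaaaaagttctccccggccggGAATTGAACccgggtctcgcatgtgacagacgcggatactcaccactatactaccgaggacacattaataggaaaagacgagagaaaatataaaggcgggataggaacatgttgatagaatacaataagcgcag

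GAGAGA is marked in a pair of weaker final peaks, and it also occurs, in lower case, in each of the 3 sequences above. The pair lies in introns of lin-14, a heterochronic transcription factor gene (chrX:11467320-11467520), and of ldb-1, which encodes the cofactor that binds LIM domains and was chosen after its values were seen (chrX:11031309-11031509). Capitals mark GAGAGA on either strand.
lin-14: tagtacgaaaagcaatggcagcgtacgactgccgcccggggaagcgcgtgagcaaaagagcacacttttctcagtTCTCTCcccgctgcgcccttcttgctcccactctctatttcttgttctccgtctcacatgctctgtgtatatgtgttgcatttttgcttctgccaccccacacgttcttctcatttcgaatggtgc
ldb-1: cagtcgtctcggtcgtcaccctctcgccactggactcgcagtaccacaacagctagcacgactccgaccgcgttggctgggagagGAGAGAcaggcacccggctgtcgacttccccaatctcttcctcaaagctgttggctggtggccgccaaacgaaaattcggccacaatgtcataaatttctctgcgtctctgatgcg

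The last pair held GCGCAGGG, the core of a motif known from the sites on X that recruit the dosage compensation complex. One lay in an intron of mom-1, a gene for Wnt secretion (chrX:6296452-6296652), with the motif present at 2 places, and the other lay 1539 bp downstream of the 5′ end of WBGene00020828 (chrX:1837776-1837976). Capitals mark GCGCAGGG on either strand.
mom-1: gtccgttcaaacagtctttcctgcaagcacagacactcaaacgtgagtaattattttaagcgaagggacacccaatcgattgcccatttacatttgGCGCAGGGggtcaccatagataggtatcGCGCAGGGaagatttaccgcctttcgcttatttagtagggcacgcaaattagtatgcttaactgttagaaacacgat
WBGene00020828: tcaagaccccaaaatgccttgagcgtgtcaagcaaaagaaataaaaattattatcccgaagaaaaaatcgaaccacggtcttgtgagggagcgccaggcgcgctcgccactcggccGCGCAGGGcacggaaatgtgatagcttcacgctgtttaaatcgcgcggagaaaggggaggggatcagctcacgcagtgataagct

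Candidate regions were thinner on X than on the autosomes together, and X was within the range of the single autosomes. X had 252 candidates per Mb, against 284.5 on the autosomes, where the range ran from 237 on chromosome IV to 333 on chromosome III. X makes up 17.7% of the assembly and held 15.98% of the candidates (exact Clopper-Pearson 95% interval 15.5 to 16.4). Its share was 16.5% of the 30000 regions of replicate 1 and 16.1% of the 22464 regions of replicate 2. Protein-coding genes were sparser there too, at 154 per Mb on X and 209 per Mb on the autosomes, the lowest of the 6 chromosomes. The number of reads is not known, neighbouring regions are not independent, and all intervals here cover counting error only. With 1 group and no replicate of a chromosome, no test of X against the autosomes was made.

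Final peaks made up a similar share of the candidates on X and elsewhere. On X 68 of 4466 candidates were final (1.52%, 1.18 to 1.93), against 389 of 23487 on the autosomes (1.66%), with single autosomes between 1.46% and 1.88% and 1.63% over all chromosomes. The share on X was lower away from tRNA genes. Of the 4320 X candidates farther than 500 bp from a tRNA gene, 44 were final (1.02%, 0.741 to 1.36). Among autosomal candidates of that kind, 371 of 23255 were final (1.595%, 1.44 to 1.76), and the lowest autosome was V at 1.40%. The single lists gave the same direction when the 457 strongest regions of each were taken, called its top regions below. Away from tRNA genes, 1.13% of X regions and 1.48% of autosomal regions were top regions in replicate 1, and 1.14% of X regions and 2.06% of autosomal regions in replicate 2.

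Candidates were spread more evenly along X than along any autosome. The 17 full 1 Mb bins of X held 207 to 304 candidates with a median of 247, and their coefficient of variation was 14.4%, against 18.3% to 35.5% on the 5 autosomes. The lowest values formed a stretch in the middle, with 207 to 229 candidates per bin from bin 7 to bin 12, while bin 1 at the left end had 212. With each chromosome divided into 3 parts of equal length, the outer parts of X held 71.4% of its candidates (70.0 to 72.7), against 74.1% on the autosomes (73.5 to 74.7), and 64.2% of its protein-coding genes, against 61.9%. Across the 17 bins, candidates and genes had a Spearman's rho of -0.42, and the counts of replicates 1 and 2 had a rho of 0.92. Both are descriptions over neighbouring bins that share libraries.

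**Figure D1:**
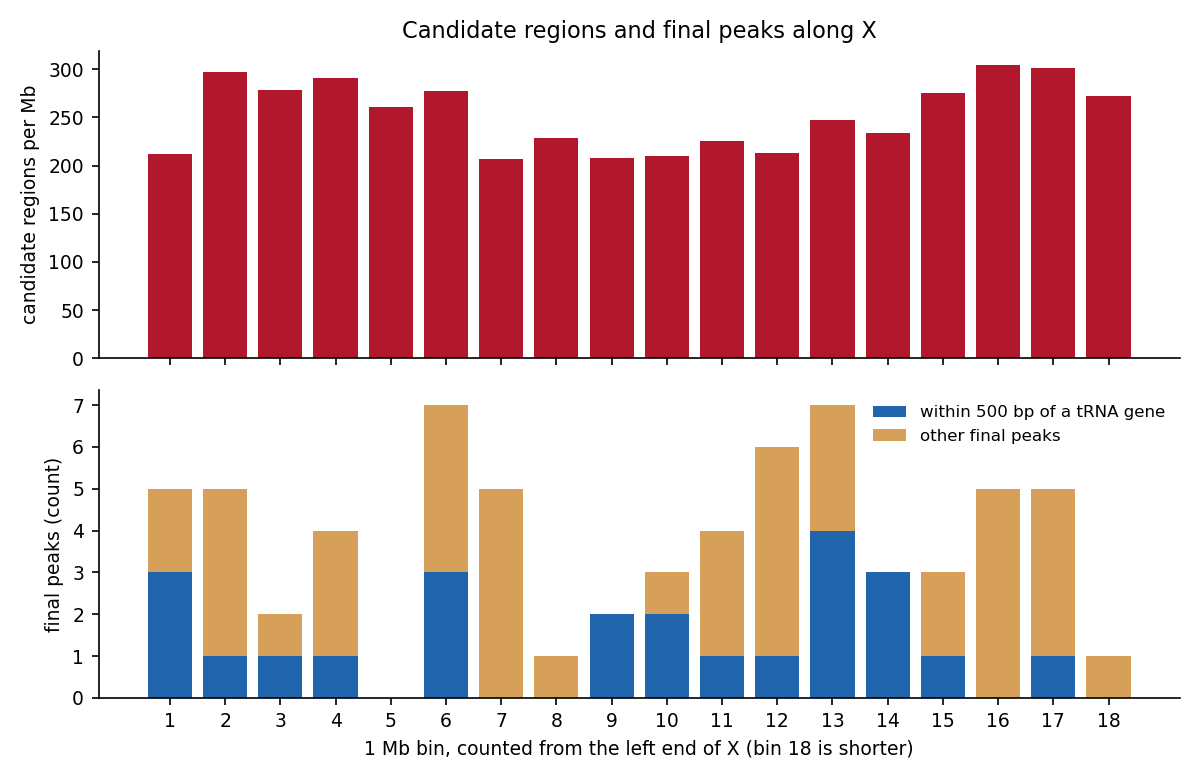
Candidate regions per Mb (upper panel) and number of final peaks (lower panel) in each 1 Mb bin of X, counted from the left end, with final peaks within 500 bp of a tRNA gene in blue and the others in ochre. Candidates vary between 207 and 304 in the full bins, while final peaks vary between 0 in bin 5 and 7 in bins 6 and 13.

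Final peaks were spread over the whole of X. Its left, middle and right parts held 22, 22 and 24 final peaks. Bins 6 and 13 had 7 each, and bin 5 had 0 among 261 candidates. The longest stretch without a final peak covered 1254 kb, from chrX:3802885 to chrX:5056414, and contained 187 protein-coding genes. Its strongest candidate in bin 5 lay 176 bp upstream of glit-1, with a signal of 77.37 in the pooled list, and was the candidate of highest signal on X outside the final set. The weakest final peak on X, 1388 bp upstream of C02B4.3 and on the isoleucine tRNA gene C02B4.t1, had a signal of 77.40. The next candidates outside were those at F15G9.5 (77.3), lfi-1 (76.9), fln-2 (76.8) and dim-1 (76.2).

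Signals on X were like those of the autosomes for the bulk of the regions and lower at the top. The signal is the authors' own value, on a scale that no source used here describes, and it is compared only within a list. Candidates had a median of 30.2 on X and 30.3 on the autosomes, and their 90th percentiles were 50.3 and 50.1. Among final peaks the median was 85.2 on X and 92.5 on the autosomes, where the lowest single chromosome had 90.1. Of the X final peaks, 13 of 68 reached a signal of 100 (19.1%), against 151 of 389 autosomal ones (38.8%). The strongest region of X had 198.8, within the range of the single autosomes, whose strongest regions had 189.7 on II to 722 on III. Of the 20, 100 and 1000 strongest regions of the genome, 1, 8 and 162 lay on X.

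**Figure D2:**
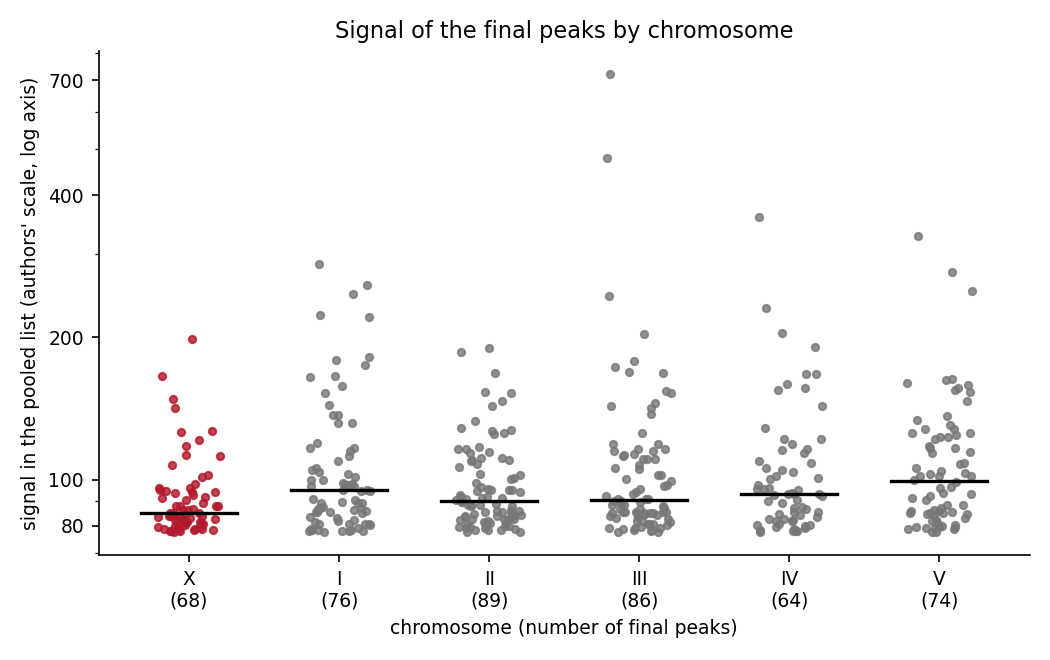
Signal in the pooled list, on the authors' scale and a log axis, of every final peak by chromosome, with X at the left. Points are peaks, spread sideways for visibility, bars are medians, and the median of X is 85.2 with a highest value of 198.8.

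The region upstream of T13C5.6 had the highest signal on X in replicate 2 and in the pooled list. In replicate 1 it was below the regions at C04A11.t1 and F38G1.t2. Its signal was 71.6 in replicate 1 (rank 35) and 131.9 in replicate 2 (rank 12), and the summit lay inside C14F11.14, an unclassified non-coding RNA gene of 147 bp. No annotated tRNA gene lay within 500 bp, although the printed sequence holds a match to the B box core, and 16.9% of the 24-mers around the summit occur elsewhere in the genome.

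Of the 20 strongest X regions, 20 were final, 10 lay within 500 bp of a tRNA gene and 7 lay in a promoter window, meaning a summit between 1000 bp upstream and 500 bp downstream of an annotated protein-coding 5′ end. The other promoter regions among these 20 were at acl-1, an acyltransferase gene (126), sec-15, for an exocyst subunit, together with C28G1.2 (112), serp-1.1 (101.1), F13C5.2 (95.98), sor-3, a chromatin gene (94.3), and egl-17 (142). Away from promoters and tRNA genes the strongest were those of ptr-5, a patched-related gene (108, at 3461 bp upstream), the mom-1 intron, whose nearest 5′ end is that of cest-16 (102.2), WBGene00020828 (96.2), C30E1.4 (95.4), Y72A10A.1 (94.8) and dgk-1, a diacylglycerol kinase gene (94.4).

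Some of these ranked much higher in 1 replicate than in the other. The mom-1 region had a signal of 32.3 in replicate 1 (rank 1588) and 69.7 in replicate 2 (rank 100). WBGene00020828 showed the opposite, with 70.3 in replicate 1 (rank 38) and 28.5 in replicate 2 (rank 2413), and Y72A10A.1 had 62.4 (rank 65) and 32.5 (rank 1446). The weaker values of mom-1, Y72A10A.1 and, narrowly, WBGene00020828 were still above the 90th percentile of X regions in those lists. That percentile was 27.99 in replicate 1 and 28.4 in replicate 2. At acl-1, a top region of both replicates, the values were 45.1 (rank 276) and 77.8 (rank 67). Of the 20 regions, 13 ranked within the first 457 of both replicates.

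Genes of tRNAs carried 24 of the 68 final peaks on X (35.3%, 24.1 to 47.8), against 18 of 389 on the autosomes (4.63%, 2.77 to 7.21), where single chromosomes ranged from 1.32% on I to 9.38% on IV. X thus held 57.1% of the 42 final peaks near tRNA genes and 10.6% of the other 415. The share was also higher on X in each replicate alone, at 26.03% of the top regions of X and 4.43% of those of the autosomes in replicate 1, and 31.0% on X and 4.01% on the autosomes in replicate 2. Such genes are also denser on X, which carries 276 of the 612 annotated tRNA genes (45.1%), with 15.6 per Mb on X against 4.07 per Mb on the autosomes. Bases within 500 bp of one make up 1.38% of X and 0.398% of the autosomes, and 3.27% of X candidates and 0.988% of autosomal candidates had their summit there.

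Counted per gene, 29 of 276 tRNA genes on X (10.5%, 7.15 to 14.7) and 19 of 336 on the autosomes (5.65%, 3.44 to 8.69) had a final peak, with overlapping intervals. Fewer X genes had a candidate, 154 (55.8%) on X and 216 (64.3%) on the autosomes. Of candidates near a tRNA gene, 24 of 146 were final on X (16.4%, 10.8 to 23.5) and 18 of 232 on the autosomes (7.76%, 4.66 to 11.98).

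On X the summits lay at the tRNA genes themselves. In 13 of the 24 peaks the summit was inside the gene, and in all 24 it was at most 75 bp away. The genes belong to 14 of the 20 amino acid families annotated on X, led by glutamate with 5 genes near a final peak, serine with 4, and alanine and leucine with 3 each. Arginine, the largest family on X with 27 genes, had 15 with a candidate and 0 with a final peak, against 4 of 17 on the autosomes with a final peak. The cysteine, methionine, phenylalanine, tryptophan and valine genes on X also had 0. The 9-base B box core was found in 97.1% of the 276 X tRNA genes. Within 100 bp of the summit it occurred at 20 of the 24 X final peaks near tRNA genes, at 2 of the other 44, and in 7.75% of all windows of that length on X.

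C04A11.t1 had the highest signal of the tRNA genes on X, 165.5 in the pooled list, with 97.02 in replicate 1 (rank 12) and 69.7 in replicate 2 (rank 101). The serine tRNA gene E03E2.t1, in an intron of cat-1, which encodes the vesicular monoamine transporter, had 148.5, with 66.9 (rank 50) and 79.9 (rank 60). F38G1.t2 in egl-17 had 142, with 78.6 (rank 25) and 64.7 (rank 123), and the alanine tRNA gene F15G9.t1, in an intron of him-4, the hemicentin gene, had 127, with 68.6 (rank 44) and 58.3 (rank 166). These 4 were top regions of both replicates. The others among the 20 strongest were the tRNA genes at M02F4.2 (121), in an intron of nhr-17, a nuclear hormone receptor gene, near nlp-76 (118), at col-181, a collagen gene (113), at C28G1.2 and sec-15 (112), at T24D5.1 (98.1) and at sor-3 (94.3). Of the 24 peaks, 9 lay inside a protein-coding gene and 5 in a promoter window.

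Sequence copies limit these values. In 23 of the 24 peaks near tRNA genes more than 5% of the 24-mers around the summit occur elsewhere in the genome, as is usual for tRNA genes, and no source used here says how reads with several possible origins were placed. In windows with at most 5% of such 24-mers, 1 of 42 X final peaks was near a tRNA gene (2.38%), against 0.334% on the autosomes, and the part of copied sequence in the result was not tested.

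Unclassified non-coding RNA genes, mostly short transcripts annotated without a known role, contained 17 of the 68 X final summits (25%, 15.3 to 37.0) and 39 of the 389 autosomal ones (10.0%, 7.23 to 13.5), where single autosomes ranged from 5.26% to 16.2%. Without peaks near tRNA genes the shares were 11 of 44 on X (25%) and 28 of 371 on the autosomes (7.55%). Such genes are denser on X, with 142 per Mb on X against 63.5 per Mb on the autosomes, and contained 6.49% of X candidates and 2.44% of autosomal ones. Genes of snoRNAs, which guide the modification of other RNAs, showed the opposite order. No X final peak lay within 500 bp of a snoRNA gene (0 of 68, exact upper bound 5.28%), against 32 of 389 on the autosomes (8.23%). X has 33 snoRNA genes (9.54% of those annotated), of which 13 had a candidate (39.4%) and 0 a final peak (exact upper bound 10.6%). Of the 313 on the autosomes, 171 had a candidate (54.6%) and 34 a final peak (10.9%, 7.64 to 14.8). Counted per gene, the intervals for final peaks overlapped.

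**Figure D3:**
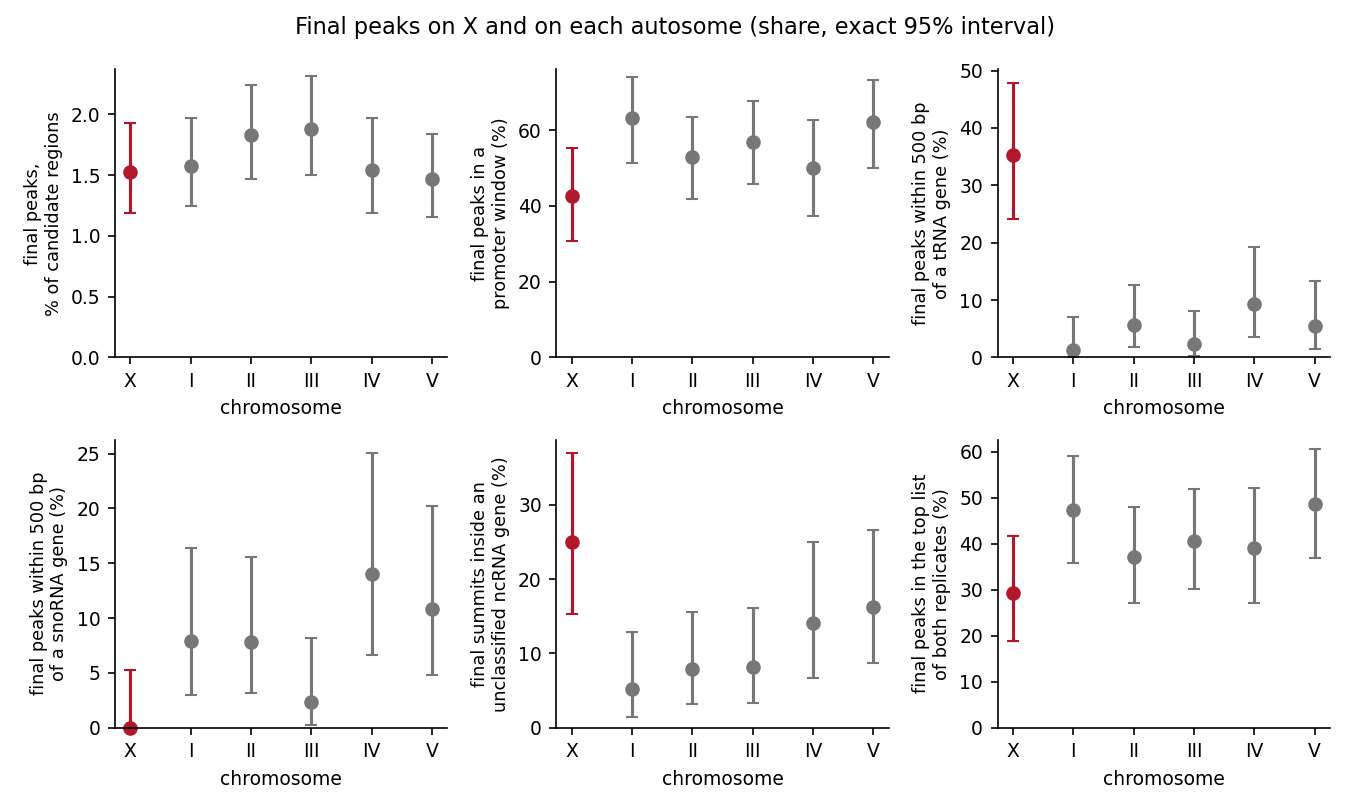
Final peaks as a percentage of candidate regions (first panel) and share of final peaks with each feature (other panels). X is in red at the left and chromosomes I to V are in grey, with exact 95% intervals as bars. X has the highest share near tRNA genes (35.3%) and in unclassified non-coding RNA genes (25%), and the lowest in promoter windows (42.6%), near snoRNA genes (0) and in the top regions of both replicates (29.4%).

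Promoter windows held a smaller share of final peaks on X than on the autosomes. Of the X final peaks 29 of 68 did (42.6%, 30.7 to 55.2), against 222 of 389 on the autosomes (57.1%, 52.0 to 62.0; single chromosomes 50% to 63.2%). Promoter windows cover 26.8% of X and 32.9% of the autosomes, and held 32.3% of X candidates and 35.9% of autosomal ones. Without peaks near tRNA genes the shares were 24 of 44 on X (54.5%, 38.8 to 69.6) and 216 of 371 on the autosomes (58.2%, 53.0 to 63.3). The median distance from a final summit to the nearest protein-coding 5′ end was 1263 bp on X and 541 bp on the autosomes. Candidates were also farther away on X, at 1382.5 bp against 1142 bp. The distances include the peaks near tRNA genes and were not computed without them.

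Outside protein-coding genes lay 54.4% of X final peaks and 51.9% of autosomal ones, in introns 29.4% and 26.99%, and in coding sequence 14.7% and 18.5%. The order for coding sequence turned in the top regions of replicate 2 (13.8% on X, 13.3% on the autosomes), in single-copy windows (21.4% and 19.4%) and without regions near tRNA genes (22.7% and 19.1%). Candidates on X lay more often outside genes, at 38.8% on X and 29.9% on the autosomes, and less often in coding sequence, at 28.5% and 35.3%. Bases outside genes make up 44.5% of X and 35.8% of the autosomes, and coding bases 19.97% and 25.6%.

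Of the 2731 protein-coding genes on X, 1102 had a candidate summit in the promoter window (40.4%, 38.5 to 42.2), against 41.3% of autosomal genes and 41.2% over all chromosomes. A final summit lay in the window of 31 X genes (1.14%, 0.773 to 1.61), against 300 of 17242 autosomal genes (1.74%, 1.55 to 1.95; single autosomes 1.32% to 2.61%) and 1.66% over all chromosomes. Besides those already named, these genes include the following, chosen after their values were seen: kin-29, a salt-inducible kinase gene (90.8), epn-1, the epsin gene (89.4), bet-2, a bromodomain gene (85.2), gpd-2, a glyceraldehyde phosphate dehydrogenase gene that shares its peak with mai-1 (85.1), ftt-2, a 14-3-3 gene (82.3), ser-1, a serotonin receptor gene (80.6), and klp-13, a kinesin gene (80.04).

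Of the 59 X genes on the lists followed here, 38 had a candidate in the promoter window, against 40.4% of all X genes. None had a final peak there, against 1.14% of all X genes, a share too low for the 0 to set the lists apart. Among the top regions of either replicate alone 1 listed gene had one. Windows were taken at every annotated 5′ end of a gene, so a region could lie inside the gene, as at fox-1, mec-2, vab-3 and dim-1. A gene with more annotated 5′ ends thus had more windows in which a candidate could fall. Its signal was the highest over them. The shares and medians of the lists were not adjusted for this, so they do not show enrichment. All 6 X genes that set the X signal or act in dosage compensation had a candidate. Of all X genes 40.4% had one, and of the listed X genes 38 of 59 had one. The 6 genes had a median signal of 38.99, against 32.8 for the 1102 X genes with a candidate. fox-1, an RNA-binding X signal element, had 73.3, with 37.6 in replicate 1 (rank 772) and 31.8 in replicate 2 (rank 1580). Lower values were found at ceh-39 (42.3) and sex-1 (39.6), both X signal elements, at xol-1, the switch gene that they repress (38.3), at sdc-1 (30.2) and at sdc-2, which brings the dosage compensation complex to X (29.7). Another candidate, 4781 bp upstream of xol-1, held GCGCAGGG and had a signal of 57.9.

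Of 6 touch receptor neuron genes on X, candidates lay at mec-2, a stomatin-like gene (58.1), mec-18 (43.0) and mec-7, a beta-tubulin gene (24.4), and there was none in the windows of mec-4 and mec-10, the touch channel genes, or of mec-5. mec-5, a collagen gene needed for touch, had a final peak in its coding sequence, 1872 bp downstream of its 5′ end. The signal there was 79.3 in the pooled list (rank 404), 41.9 in replicate 1 (rank 423) and 39.6 in replicate 2 (rank 612). It was 1 of 10 X final peaks in coding sequence. The share of all X genes with a final peak inside the gene was not counted, so this peak does not set mec-5 apart.

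The counts that follow can be read against the 40.4% of all X genes with a candidate, with the same limit of unequal numbers of windows. Among 12 neuronal transcription factor genes on X, 6 had one, led by vab-3, a Pax6 gene (50.2), egl-13 (39.8) and unc-3 (26.96), with none at ceh-14, ttx-3, alr-1, odr-7, fax-1 and lim-4. A final peak 2894 bp downstream of the 5′ end of lin-32, a proneural gene (79.3), lay on the aspartate tRNA gene T14F9.t1. Of 7 epidermal, gut and muscle factor genes 4 had a candidate, the highest at nhr-25 (34.5), elt-3 (28.5) and daf-3 (28.4), and elt-2, hlh-8 and med-1 had none. Of 14 genes of neuronal membranes, guidance and synapses 10 had one, led by unc-58, a potassium channel gene (62.7), unc-115 (44.8) and unc-1 (40.6), with none at unc-9, unc-18, sax-3 and dop-1.

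Muscle and basement membrane genes had the highest list median, 47.9 over 6 of 7 genes. They were led by dim-1, an immunoglobulin gene of muscle (76.2), unc-27, a troponin I gene (72.1), and let-2, a collagen IV gene (56.2), and twk-18 had no candidate. dim-1 had 34.0 in replicate 1 (rank 1253) and 48.1 in replicate 2 (rank 296), and unc-27 had 44.9 (rank 280) and 24.8 (rank 4250), so each was high in 1 replicate. Of 5 yolk protein genes only vit-2 had a candidate (42.7). The heterochronic genes lin-14 and hbl-1 had 32.1 and 32.2 in their windows. The final peak in the lin-14 intron, 1860 bp downstream of a 5′ end, had 83.8, with 42.1 in replicate 1 (rank 418) and 41.4 in replicate 2 (rank 519). For lin-14, as for mec-5, no share over all X genes was counted for peaks inside the gene. The ldb-1 intron had 77.9, with 42.2 in replicate 1 (rank 407) and 43.6 in replicate 2 (rank 423).

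GAGAGA was frequent at X final peaks. Within 100 bp of the summit it occurred, on either strand, at 31 of 68 X final peaks (45.6%, 33.5 to 58.1) and at 90 of 389 autosomal ones (23.1%, 19.0 to 27.7). Candidates had it in 16.5% on X and 15.6% on the autosomes, and all windows of that length in 9.50% on X and 10.1% on the autosomes. The top regions held it in 41.1% on X and 20.1% on the autosomes in replicate 1, and in 37.9% on X and 23.6% on the autosomes in replicate 2. It was present at 14 of the 24 X peaks near tRNA genes (58.3%) and at 17 of the other 44 (38.6%, 24.4 to 54.5), against 22.6% of autosomal peaks away from tRNA genes, where single autosomes ranged from 15.5% to 29.8%. The median GC content of the windows was 51.0% at X final peaks and 47.8% at autosomal ones, against 34.8% and 35.3% over all windows.

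GCGCAGGG was rare everywhere. It occurred at 17 of 4466 X candidates (0.381%, 0.222 to 0.609) and at 29 of 23487 autosomal ones (0.123%, 0.0827 to 0.177), against 0.0851% of all X windows and 0.0553% of all autosomal windows. The 17 X candidates had a median signal of 42.4, against 30.2 for all X candidates, and 2 of them, the printed pair, were final. AATGCAT, part of the sites that UNC-86 and MEC-3 are known to bind, occurred at 1 of 68 X final peaks (1.47%, 0.0372 to 7.92) and 10 of 389 autosomal ones (2.57%), against 3.29% of all X windows. TAATTA, the homeodomain core, occurred at 1 of 68 on X (1.47%) and 16 of 389 on the autosomes (4.11%). Candidates had it in 6.92% on X and 6.04% on the autosomes, and all windows in 10.2% and 9.12%. TGACGTCA occurred at 0 and 0, against 0.744% of all X windows and 1.20% of all autosomal windows. No motif searched contains another, and a match is a description and not a site.

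The replicates shared a smaller part of their top 457 regions on X than elsewhere, and the gap was smaller for the top 1000 (33.7% on X, 38.1% on the autosomes). Of the 73 top regions of replicate 1 on X, 20 overlapped a top region of replicate 2 by at least 1 bp (27.4%, 17.6 to 39.1). On the autosomes 164 of 384 did (42.7%, 37.7 to 47.8), with single chromosomes between 37.0% and 46.1%. X had 58 of the 457 top regions of replicate 2 (12.7%), fewer than any autosome, and the autosomes together had 399. The shared parts above are taken over replicate 1, and set against the top regions of replicate 2 the same counts give a smaller gap. Among the X final peaks 20 were top regions of both replicates (29.4%, 19.0 to 41.7), 19 of replicate 1 alone, 20 of replicate 2 alone and 9 of neither, against 42.4% in both on the autosomes and 40.5% over all chromosomes.

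The 34 stronger X final peaks included 18 of these 20, and the 34 weaker ones 2, an order that is partly built in because the pooled signal contains both replicates. Peaks near tRNA genes were top regions of both replicates in 11 of 24 cases (45.8%), against 9 of the other 44 on X (20.5%, 9.80 to 35.3). Among autosomal peaks away from tRNA genes 159 of 371 were (42.9%, 37.8 to 48.1), and the lowest autosome was II at 38.1%. Away from tRNA genes the X peaks had signals of 26.7 to 71.6 in replicate 1 (median 41.3) and 28.5 to 131.9 in replicate 2 (median 43.5).

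**Figure D4:**
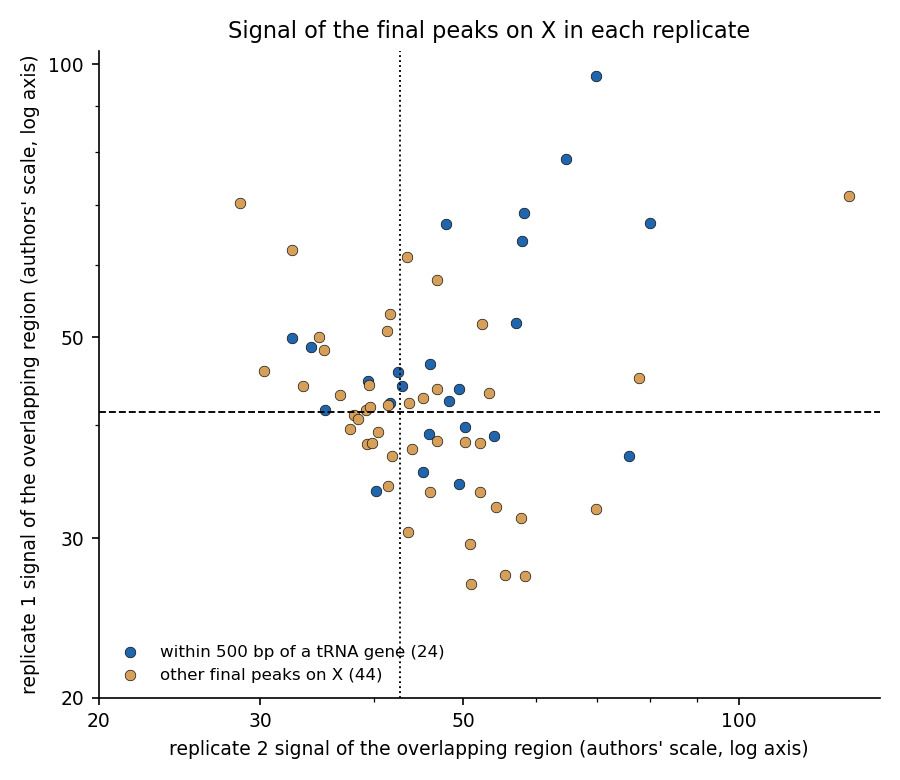
Signal of the overlapping region in replicate 1 (vertical) and replicate 2 (horizontal) for the 68 final peaks on X, both on the authors' scale and log axes, with the 24 peaks near tRNA genes in blue and the other 44 in ochre. Lines mark the lowest of the 457 strongest regions of each replicate, 41.4 in replicate 1 (dashed) and 42.6 in replicate 2 (dotted), and 20 peaks are top regions of both.

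Over all regions, and not only the top ones, X was within the range of the single autosomes in overlap and in Spearman's rho. Its Pearson's r was below that range. Of X candidates 46.9% overlapped a region of both replicate lists, against 48.6% of autosomal candidates. Signals of regions with summits within 100 bp had a Spearman's rho of 0.356 on X (n = 1128) and 0.374 on the autosomes (n = 5882). Pearson's r over log2 values was 0.44 on X and 0.50 on the autosomes, with single autosomes between 0.47 (II) and 0.53 (V). These are descriptions across regions of the same 2 libraries.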

How the data were processed

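Each region has a signal value and a −log10 q-value, both as the authors deposited them. The scale of the signal and the aligner, peak caller, IDR threshold, read filters and read numbers were not given in the sources used here. Per the deposited file list, the pooled and the final list both derive from the 2 replicates. A control file named there was not used here. The −log10 q-value was not used for any result.

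Lists on ce11 were used, with ce10 kept for 1 alternative. Genes and 5′ ends came from protein-coding transcripts of Ensembl release 115 (WBcel235, which is ce11 under another name), and tRNA names and sequence from RefSeq on that assembly, where all 276 X tRNA genes matched. A region was placed by its summit. Top regions are the 457 of highest signal in a replicate list. For each X final peak the replicate value is that of the overlapping region of highest signal. Shares carry exact Clopper-Pearson 95% intervals, computed with Python 3.11.15 and scipy 1.17.1, checked on planted regions. Named genes are those nearest the 20 strongest X regions, listed genes, those at the edge of the final set, and the strongest of a bin described. The members, lists, motifs and windows were chosen with earlier results of these data known, and the unclassified non-coding RNA genes, tRNA products, B box core and values without tRNA regions were added after seeing the data. Alternatives covered the replicate lists, ce10, merged regions, window sizes, bin size, overlap, the number of top regions, stronger peaks and single-copy windows.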

Additional observations from a re-analysis of the deposited data

How the results depend on the processing

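Over 20 alternative settings, 78 of 120 values stayed within their interval, within the spread of the replicates, or for counts within 1.5 times. Where none of these existed, a small fixed margin was used. Some of the 78 could not change, such as the coding share with other promoter windows and rho with 50% reciprocal overlap. In the replicate lists taken singly, the X share of candidates was 16.1% to 16.5%, X final peaks in the outer parts 65.5% to 73.97%, those in coding sequence 13.8% to 17.8%, and the ratio of 90th percentiles 0.972 to 1.005. Top regions stand for final peaks there, and values that compare the replicates could not be had. Final peaks on X numbered 24 (0.537% of X candidates, against 0.873% on the autosomes) among the 229 of highest signal, 42 (1.08%, against 1.57%) in single-copy windows and 44 (1.02%, against 1.595%) without regions near tRNA genes, a setting chosen after seeing the data. The share near tRNA genes was 2.38% in single-copy windows. Among the 229 final peaks of highest signal, 62.5% of the 24 on X were in the top regions of both replicates, against 70.2% on the autosomes. With the middle part widened to 50% of the length, the outer parts held 54.4% of X candidates, GAGAGA within 50 bp occurred at 20.6% of X final peaks, and the overlap of the top 100 regions was 15.4% on X (2 of 13) and 50.6% on the autosomes. For the top 1000 regions it was 33.7% on X (56 of 166) and 38.1% on the autosomes, a smaller gap than for the top 457. The order of X and autosomes turned for rho, which was 0.415 on X and 0.376 on the autosomes with summits within 50 bp, and 0.331 and 0.327 within 200 bp. It also turned for the X share of final peaks in the outer parts (65.5% in replicate 2 alone, 47.1% with the wider middle part, 63.6% without tRNA regions, against 65.9%, 51.7% and 66.6%), for coding sequence (13.8%, and 21.4% in single-copy windows and 22.7% without tRNA regions, against 13.3%, 19.4% and 19.1%), and for the 90th percentile of signal, X over autosomes (0.972, 0.982 and 0.987 in the same 3 settings). The cause was not tested. Without read counts the depth behind each region is unknown. No paired analysis was possible because there is 1 group.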

Other observations

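The 10 X final peaks in coding sequence, none of them near a tRNA gene, lay in genes of several kinds and are named here after their values were seen. They include col-171 (87.9) and col-176 (82.9), both collagen genes, lpr-5, a lipocalin-related gene (84.0), spc-1, the alpha-spectrin gene (80.9), hda-4, a histone deacetylase gene (78.7), and dyn-1, the dynamin gene (78.7). At dyn-1 the signal was 26.7 in replicate 1 (rank 3507) and 51.0 in replicate 2 (rank 247), and at lpr-5 it was 27.3 (rank 3204) and 55.5 (rank 193). A peak 2564 bp downstream of the 5′ end of C24H10.4 (83.6) was the X final peak with the most copied sequence, with 97.8% of its 24-mers found elsewhere in the genome.

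MicroRNA genes on X numbered 74, of which 25 had a candidate within 500 bp and 0 a final peak, against 73 and 4 of 187 on the autosomes. Of the 44 X final peaks away from tRNA genes, 16 lay neither in a promoter window nor on an unclassified non-coding RNA gene.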
